A study of Mus musculus with 7 samples.

Results

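The 34 genes described here belong to the interferon response and to antigen presentation: transcription factors of the interferon pathway (3 genes), RNA sensors (2), antiviral effectors and regulators (17), the MHC class I pathway (8), the MHC class II pathway (3) and the galectin gene Lgals9. They were taken by name from a list that was drawn up with earlier results of these data known, and no cutoff on their values was applied. All 34 were found among the 23413 gene symbols of each library, 33 by the symbol itself and Ifi27 under its older symbol Ifi27l1, and all 34 passed the filter on low counts, which kept 15881 genes. RNA was read from the cortex of APP/PS1 mice, a model of Alzheimer's disease that carries mutant human amyloid precursor protein and presenilin transgenes (B6.Cg-Tg(APPswe,PSEN1dE9)85Dbo/Mmjax), at 13 months of age. The mice had been singly housed since 6 months of age and fed for 7 months on equal calories of a control diet (CD, called SD in the sample labels, n = 4) or of a ketogenic diet (KD, n = 3). Of its energy, CD gave 74% as carbohydrate, 10% as protein and 16% as fat, whereas KD gave less than 0.5% as carbohydrate, 10% as protein and 90% as fat. Both groups carried the transgenes and no wild-type cortex was compared here, so the values bear on the diet and not on the transgenes. Each library came from 10 mg of frozen cortex of 1 mouse, the sex of which the labels do not give.

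Interferons bind receptors at the cell surface and activate a transcription factor complex that holds STAT2 and IRF9, which enters the nucleus and binds the interferon-stimulated response element (ISRE) of its target genes. Many of these targets block virus replication, and others cut proteins into peptides, carry the peptides into the endoplasmic reticulum and load them on MHC class I molecules for display to CD8 T cells. MHC class II molecules show peptides to CD4 T cells and are made mostly by professional antigen-presenting cells. In the brain, microglia and the macrophages of the vessels and meninges are the usual sources of interferon-induced and MHC class II transcripts, and an interferon response of microglia is well known around amyloid plaques.

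The element that ties many of these genes together can be read directly in their promoters. RefSeq windows of 300 bases, from 250 bases before to 50 bases after the start site on GRCm38.p6 (the mm10 assembly), were held for 27 of the 34 genes. The ISRE core was searched on both strands as GAAANNGAAA, where N is any base, and matched 13 of the 27 windows (48.15%), against 3.993% of the windows of 27025 symbols. The 6 windows below are shown because they hold the core upstream of the start site in an interferon transcription factor, in 4 antiviral effectors and in the light chain of MHC class I. Each stretch is written 5′ to 3′ along the gene, with the core in capitals, as spelled above or as its reverse complement.

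Stat2 (GRCm38.p6 chr10:128270256-128270305, + strand): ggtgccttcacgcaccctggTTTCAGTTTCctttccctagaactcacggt
Ifit1 (chr19:34640765-34640833, + strand): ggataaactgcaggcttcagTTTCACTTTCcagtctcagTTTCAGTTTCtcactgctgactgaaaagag
Ifit3 (chr19:34583353-34583436, + strand): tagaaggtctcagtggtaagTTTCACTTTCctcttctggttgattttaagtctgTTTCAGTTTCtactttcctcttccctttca
Isg15 (chr4:156200855-156200916, - strand): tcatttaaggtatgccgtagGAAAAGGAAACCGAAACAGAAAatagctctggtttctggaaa
Bst2 (chr8:71537567-71537622, - strand): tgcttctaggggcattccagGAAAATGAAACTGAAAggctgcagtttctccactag
B2m (chr2:122147528-122147577, + strand): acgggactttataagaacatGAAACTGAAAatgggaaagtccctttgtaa

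Overlapping cores run together in capitals: 3 in Isg15 and 2 in Bst2, while Ifit1 and Ifit3 hold 2 separate cores each. The spelling GAAACTGAAA, read on either strand, was shared by 6 of the genes (B2m, Bst2, Gbp3, Ifit1, Ifit3 and Stat2), and GAAAGTGAAA by 3 (Gbp2, Ifit1 and Ifit3). The other genes with a core were Ddx58, Ifih1, Ifitm3, Trim30a and Lgals9. The 14 windows without it included those of Irf7, Irf9, Ifit2, Oasl2 and the classical MHC class I genes. A match describes the letters of the window and does not show that a factor bound there. Only this spelling was searched, so a window without a match may still hold a variant of the element.

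Genes of antigen presentation also carry other elements. The Y box, searched as CTGATTGG on both strands, matched 5 of the 27 windows (18.52%: Psmb9, Tap1, H2-D1, H2-K1 and H2-Aa), against 4.703% of all windows, and the kappaB site GGGATTCCCC matched the windows of H2-D1 and H2-K1, against 0.09991% of all. The gamma-activated site TTCNNNGAA matched 4 of the 27 (Ifit2, Ifitm3, Bst2 and Psmb8), or 14.81%, against 9.554% of all. The stretch around the kappaB site of H2-K1 and that around the Y box of H2-Aa are shown because they stand for the class I and class II genes, with the match in capitals.

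H2-K1 (chr17:34000428-34000477, - strand): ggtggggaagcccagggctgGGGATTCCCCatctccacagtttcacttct
H2-Aa (chr17:34287847-34287894, - strand): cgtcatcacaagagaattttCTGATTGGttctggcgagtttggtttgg

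The 50 bases of H2-K1 differed at 1 base from the matching 50 bases of H2-D1. These 2 classical class I genes are close paralogs, so reads of H2-D1, H2-K1 and other class I genes may have been divided among them in counting, and their separate counts are uncertain.

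The 7 libraries held 22272883 to 36614954 counts, KD mouse 3 and KD mouse 1 (23383393 counts) being the shallowest. The 34 genes together took 7333 to 18230 counts per library, and the lowest count of any of them was 18. Levels are given as CPM, a gene's counts per 1000000 counts of its library. On the first principal component of all tested genes, CD mouse 4 (42.1) and KD mouse 3 (49.5) stood apart from the others (-27.0 to 3.05). The cortical neuron gene Slc17a7 was abundant in every library (445 to 630 CPM), while the choroid plexus gene Ttr reached 425 CPM in CD mouse 1 against at most 45.4 CPM elsewhere (5 of the 8 choroid plexus markers were highest in that mouse and 3 in CD mouse 4), and the meningeal collagen gene Col1a1 was highest in CD mouse 4 (7.43 CPM, against at most 3.05). Xist, made from the inactive X chromosome, was at 242 to 526 CPM in CD mice 1 and 2 and KD mice 1 and 2, and the Y-linked Ddx3y was at 301 to 346 CPM in CD mice 3 and 4 and KD mouse 3, so both kinds of library were present on each diet.

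To ask whether the diet changed these genes, edgeR's quasi-likelihood test of KD against CD was fitted across all 15881 genes. None of the 34 genes reached the raw p-value of 0.01 that the study used, where 51 genes or 0.321% of all tested genes did. After Benjamini-Hochberg adjustment none was under 0.05, nor was any other gene (0% of all). At an unadjusted p-value under 0.05, 3 of the 34 genes were called (Tap2, H2-Ab1 and H2-Aa), where 3.19% of all genes were (506). All 3 genes were lower in KD, the direction of 1.52% of all genes at that threshold. DESeq2 placed 1 of the 34 (Tap2) at or under a raw p-value of 0.01, where it placed 120 of all genes, and limma-voom none, where it placed 38. The CD and KD ranges of CPM did not overlap for 2 of the 34 genes (Tap2 and H2-Ab1), or for 4.2% of all genes. Of the 34 genes, 15 were higher and 19 lower in KD, and the median log2 fold change was -0.00604, against -0.00329 for all tested genes. In bulk cortex, fewer cells of a type and less RNA per cell cannot be told apart. The log2 fold changes ran from -0.85 (H2-Ab1) to 0.71 (Bst2), as the plot of diet differences shows with the range left when single mice are omitted.

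**Figure D1:**
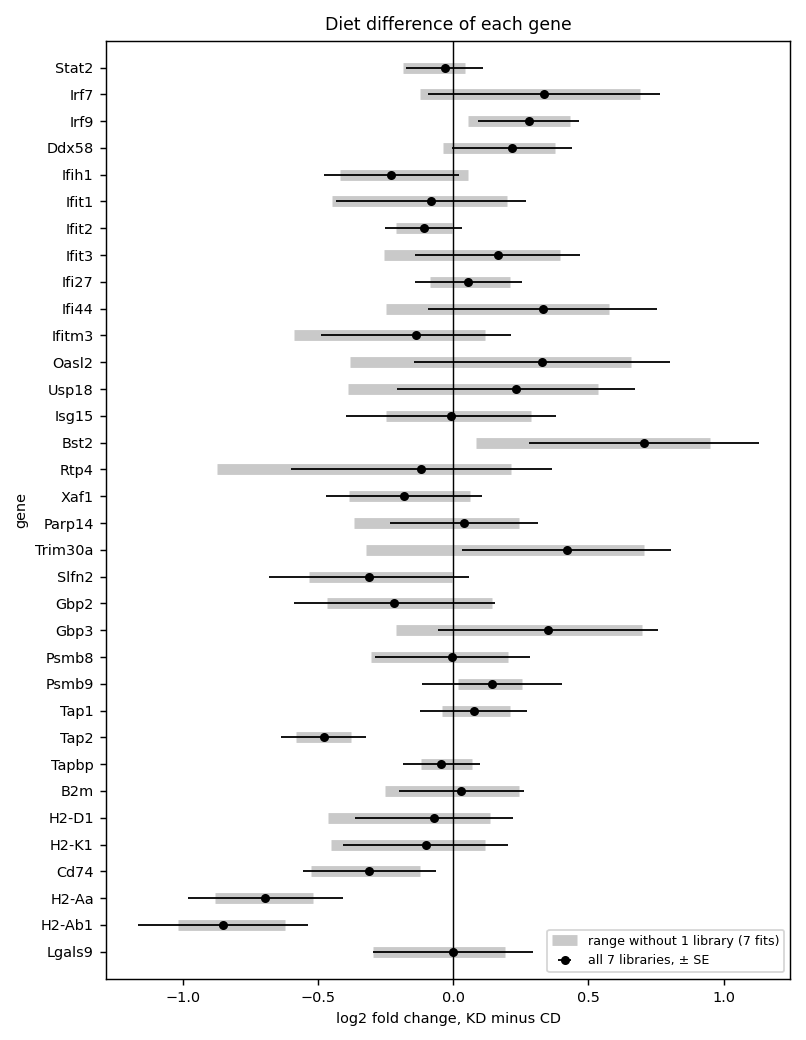
Log2 fold change (KD minus CD, x axis) of each of the 34 genes (y axis), with points for the fit of all 7 libraries, thin bars for ± SE and grey bands for the range over 7 fits that each omit 1 library. The bands of 6 genes (Ifit2, Slfn2, Tap2, Cd74, H2-Aa and H2-Ab1) lie below 0, those of Ifit2 and Slfn2 reaching close to it, the bands of 3 (Irf9, Bst2 and Psmb9) lie above 0, and those of 25 cross 0.

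Among the transcription factors, Stat2 and Irf9 belong to the complex that binds the ISRE, and Irf7 drives the amplification of type I interferon. Stat2 was the steadiest, at 23.8 to 31.7 CPM over the 7 mice, with a log2 fold change of -0.03 (SE 0.14). Irf7 was at 3.25, 1.61, 1.89 and 2.16 CPM in CD mice 1 to 4 and at 4.32, 2.79 and 1.21 CPM in KD mice 1 to 3. KD mouse 1 was the highest and KD mouse 3 the lowest of all 7, so that the KD mice spanned the CD range on both sides. For Irf9 the levels were 13.02, 10.3, 10.7 and 10.7 CPM in CD and 17.3, 12.5 and 10.6 CPM in KD, in the same order of mice. Only KD mouse 1 exceeded the CD mice, and the ranges overlapped. The log2 fold changes were 0.33 (SE 0.43) for Irf7 and 0.28 (SE 0.19) for Irf9, and without KD mouse 1 they were -0.12 and 0.05.

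Ddx58 (RIG-I) and Ifih1 (MDA5) are helicases that detect viral RNA in the cytoplasm. Ddx58 was at 11.2, 8.73, 7.199 and 10.3 CPM in CD mice 1 to 4 and at 14.2, 9.698 and 8.396 CPM in KD mice 1 to 3. The ranges overlapped, with KD mouse 1 on top and CD mouse 3 at the bottom. For Ifih1 the levels were 16.7, 15.01, 15.5 and 17.7 CPM in CD and 17.1, 16.1 and 7.81 CPM in KD, in the same order of mice. KD mouse 3 stood below all others, and the remaining 6 mice lay between 15.01 and 17.7 CPM. Neither log2 fold change, 0.22 (SE 0.22) and -0.23 (SE 0.25), reached a raw p-value of 0.05 in edgeR's quasi-likelihood test.

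Of the 17 antiviral effectors and regulators, KD was higher for 9 and lower for 8, the median log2 fold change was 0.04, and none had a raw p-value under 0.05. The IFIT proteins bind viral RNA that lacks the marks of self RNA. Ifit2 was the steadiest of the 3, at 23.03 to 33.5 CPM (log2 fold change -0.11 (SE 0.14)). Ifit1 was at 8.78, 5.75, 4.36 and 5.22 CPM in CD mice 1 to 4 and at 8.21, 5.495 and 3.23 CPM in KD mice 1 to 3. For Ifit3 the levels were 18.9, 11.9, 11.3 and 11.6 CPM in CD and 22.5, 12.5 and 9.88 CPM in KD, in the same order of mice. Both genes were high in CD mouse 1 and KD mouse 1 and lowest in KD mouse 3, and the groups overlapped. Their log2 fold changes were -0.08 (SE 0.35) and 0.16 (SE 0.30).

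Isg15 encodes a ubiquitin-like protein that is attached to other proteins, and Usp18 removes it and dampens signaling at the type I interferon receptor. Isg15 was at 1.11, 1.07, 0.6101 and 1.01 CPM in CD mice 1 to 4 and at 1.07, 0.529 and 1.26 CPM in KD mice 1 to 3. Isg15 was the least abundant by CPM, with 18 to 39 counts per library, and KD mice held both its highest and lowest value. For Usp18 the levels were 3.48, 2.34, 1.49 and 2.21 CPM in CD and 4.75, 2.12 and 1.48 CPM in KD, in the same order of mice. Usp18 was highest in KD mouse 1 and CD mouse 1. The log2 fold changes were -0.009 (SE 0.39) and 0.23 (SE 0.44).

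Ifitm3 blocks the fusion of viruses with endosomes, and Bst2 (tetherin) holds budding virus at the cell surface. Ifitm3 was at 8.01, 5.12, 5.86 and 10.7 CPM in CD mice 1 to 4 and at 10.3, 5.61 and 4.13 CPM in KD mice 1 to 3. CD mouse 4 and KD mouse 1 were high and KD mouse 3 was lowest. For Bst2 the levels were 1.74, 2.01, 1.04 and 2.35 CPM in CD and 4.92, 1.91 and 1.84 CPM in KD, in the same order of mice. KD mouse 1 was more than 2 times any other mouse, and the KD values of the other 2 mice lay inside the CD range. Bst2 had the largest upward log2 fold change of the 34 genes, 0.71 (SE 0.43), with a raw p-value of 0.134 (edgeR quasi-likelihood test, adjusted p = 0.979), and it was 0.08 without KD mouse 1. For Ifitm3 the log2 fold change was -0.14 (SE 0.35).

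Oasl2 belongs to the oligoadenylate synthetase family, and Trim30a is a TRIM protein that restrains inflammatory signaling. Oasl2 was at 6.64, 3.18, 2.501 and 4.34 CPM in CD mice 1 to 4 and at 9.24, 2.67 and 3.73 CPM in KD mice 1 to 3. For Trim30a the levels were 6.98, 5.68, 5.37 and 6.72 CPM in CD and 14.8, 5.17 and 4.67 CPM in KD, in the same order of mice. In both genes KD mouse 1 was the highest of the 7, while the other KD mice lay inside the CD range for Oasl2 and below it for Trim30a. The log2 fold changes, 0.33 (SE 0.47) and 0.42 (SE 0.39), became -0.38 and -0.32 without KD mouse 1. Gbp2 and Gbp3 are guanylate-binding GTPases that attack the vacuoles of intracellular microbes. Gbp2 had 5.67, 3.81, 3.93 and 9.97 CPM in the CD mice and 6.54, 4.94 and 3.37 CPM in the KD mice. Gbp3 was at 8.69, 4.61, 5.16 and 6.17 CPM in CD mice 1 to 4 and at 12.8, 6.94 and 3.55 CPM in KD mice 1 to 3. The pair differed in which mouse was highest, CD mouse 4 for Gbp2 and KD mouse 1 for Gbp3, and shared KD mouse 3 as the lowest. Their log2 fold changes were -0.22 (SE 0.37) and 0.35 (SE 0.40).

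Ifi27 encodes a small membrane protein and was the most abundant effector. Ifi27 had 43.3, 39.1, 32.00 and 28.05 CPM in the CD mice and 43.5, 37.9 and 28.9 CPM in the KD mice. The highest mouse was at 1.55 times the lowest, and the groups overlapped. Ifi44, an interferon-induced cytoplasmic protein, had the lowest level per length of the 34 genes. Ifi44 was at 1.795, 0.903, 1.098 and 1.12 CPM in CD mice 1 to 4 and at 2.57, 1.03 and 1.03 CPM in KD mice 1 to 3. KD mouse 1 and CD mouse 1 were above the other 5. Rtp4 is a chaperone of membrane receptors. For Rtp4 the levels were 5.02, 2.78, 2.59 and 2.103 CPM in CD and 5.22, 1.73 and 1.66 CPM in KD, in the same order of mice. The same pair of mice was high, and the 2 lowest values were in KD mice. The log2 fold changes were 0.06 (SE 0.20) for Ifi27, 0.33 (SE 0.42) for Ifi44 and -0.12 (SE 0.48) for Rtp4.

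Xaf1 antagonizes an inhibitor of apoptosis, and Parp14 adds ADP-ribose to proteins. For Xaf1 the levels were 8.35, 6.22, 4.48 and 6.88 CPM in CD and 7.14, 6.201 and 3.59 CPM in KD, in the same order of mice. Parp14 had 10.4, 7.56, 7.44 and 10.02 CPM in the CD mice and 13.5, 7.26 and 6.38 CPM in the KD mice. CD mouse 1 was the highest for Xaf1 and KD mouse 1 for Parp14, and KD mouse 3 was the lowest for both. Slfn2 is a Schlafen protein best known in T cells and macrophages. Slfn2 was at 3.51, 3.41, 2.62 and 5.65 CPM in CD mice 1 to 4 and at 3.89, 3.56 and 1.57 CPM in KD mice 1 to 3. CD mouse 4 was highest and KD mouse 3 lowest. Between the diets the log2 fold changes were -0.18 (SE 0.29) for Xaf1, 0.04 (SE 0.27) for Parp14 and -0.31 (SE 0.37) for Slfn2.

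In the MHC class I pathway, 1 of 8 genes was under a raw p-value of 0.05, the peptide transporter subunit Tap2. KD was higher for 3 and lower for 5 (median log2 fold change -0.02). Tap2 had 8.46, 8.43, 7.32 and 8.903 CPM in the CD mice and 5.004, 5.88 and 6.82 CPM in the KD mice. Every KD mouse lay below every CD mouse. The means were 8.28 ± 0.674 CPM (SD, n = 4) in CD and 5.902 ± 0.911 CPM (SD, n = 3) in KD, so that KD was at 71.3% of CD. The log2 fold change was -0.48 (SE 0.16), with a raw p-value of 0.0142 and an adjusted p-value of 0.979 in edgeR's quasi-likelihood test. A two-sided exact permutation test of log2(CPM + 0.5) gave p = 0.0571, the smallest that 35 arrangements of 4 against 3 mice allow. Tap2 kept its direction in each of the 7 fits without a mouse (-0.58 to -0.38), and its raw p-value was 0.0537 without KD mouse 1 and under 0.05 in the other 6. Tap2 lies on chromosome 17 (34203527 to 34216321, + strand), where its exons overlap those of the antisense transcripts Gm20496 and Gm15821. The strand setting of the counting is not given in the sources used here, so reads of these transcripts and of Tap2 cannot be told apart.

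Tap1, the partner of Tap2 in the transporter, was at 3.64 to 5.30 CPM over the 7 mice, with a log2 fold change of 0.08 (SE 0.20). KD mouse 1, the lowest for Tap2, was the second highest of the 7 for Tap1. Psmb8 and Psmb9 are among the catalytic subunits that turn the proteasome into the immunoproteasome. Psmb8 was at 6.78, 3.68, 4.79 and 5.599 CPM in CD mice 1 to 4 and at 7.099, 4.76 and 3.59 CPM in KD mice 1 to 3. For Psmb9 the levels were 2.22, 1.91, 1.31 and 1.88 CPM in CD and 2.095, 2.09 and 1.84 CPM in KD, in the same order of mice. For both genes the groups overlapped, with log2 fold changes of -0.00307 (SE 0.29) and 0.14 (SE 0.26). Psmb9 and Tap1 are neighbors on opposite strands of chromosome 17 and overlap in their exons, so their counts have the same uncertainty. It also holds for Psmb8, whose exons overlap those of the antisense Gm20496. The exons of Tapbp overlap those of the antisense Gm19412 and of Zbtb22 on the same strand. Some genes outside the class I pathway, such as Irf7, Irf9, Usp18 and Rtp4, also overlap other annotated genes.

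Tapbp (tapasin) bridges the transporter and the class I heavy chain. Tapbp had 23.2, 19.3, 22.2 and 29.9 CPM in the CD mice and 24.7, 22.7 and 20.7 CPM in the KD mice. CD mouse 4 was the highest, and the other 6 lay within 19.3 to 24.7 CPM. B2m, the light chain shared by all class I molecules, was the most abundant of the 34 genes by CPM and per length. B2m was at 159, 135, 106 and 118 CPM in CD mice 1 to 4 and at 177, 125 and 90.6 CPM in KD mice 1 to 3. KD mouse 1 was the highest and KD mouse 3 the lowest, so that the KD mice enclosed all 4 CD mice. The means were 129 ± 22.9 CPM (SD, n = 4) in CD and 131 ± 43.4 CPM (SD, n = 3) in KD. The log2 fold change was -0.04 (SE 0.14) for Tapbp and 0.03 (SE 0.23) for B2m.

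H2-D1 and H2-K1 encode the classical class I heavy chains that hold the peptide. For H2-D1 the levels were 19.1, 14.04, 11.7 and 21.1 CPM in CD and 22.9, 12.8 and 10.9 CPM in KD, in the same order of mice. H2-K1 had 34.1, 19.8, 20.4 and 37.96 CPM in the CD mice and 36.99, 22.9 and 17.6 CPM in the KD mice. The mice fell into the same 2 sets for both genes, CD mice 1 and 4 and KD mouse 1 being high and the others low, with no separation by diet. KD minus CD log2 fold changes were -0.07 (SE 0.29) and -0.10 (SE 0.31). Per kilobase of annotated exon, and over all 7 mice, the level was highest for B2m at 151 CPM per kb, followed by Ifi27 (24.6), Ifitm3 (10.5) and H2-K1 (9.23), and lowest for Irf7 (0.652), Psmb9 (0.521) and Ifi44 (0.222). Exon lengths cover every annotated transcript, retained introns included, and so lower the level of genes such as Irf7.

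All 3 genes of the MHC class II pathway were lower in KD, and H2-Ab1 and H2-Aa were under a raw p-value of 0.05. H2-Aa and H2-Ab1 encode the alpha and beta chains of the class II molecule I-A, and Cd74 is the invariant chain that guides it to the endosome. H2-Ab1 was at 2.05, 2.51, 3.54 and 4.78 CPM in CD mice 1 to 4 and at 1.71, 1.94 and 1.62 CPM in KD mice 1 to 3. Each KD mouse lay below each CD mouse, although CD mouse 1 and KD mouse 2 were close. The log2 fold change was -0.85 (SE 0.31), with a raw p-value of 0.0255 and an adjusted p-value of 0.979 (edgeR quasi-likelihood test), and the exact permutation test gave p = 0.0571. For H2-Aa the levels were 3.76, 6.45, 7.29 and 8.06 CPM in CD and 2.87, 4.202 and 4.67 CPM in KD, in the same order of mice. CD mouse 1 was below KD mice 2 and 3, so the groups overlapped. H2-Aa had a log2 fold change of -0.69 (SE 0.29), with a raw p-value of 0.0401 and an adjusted p-value of 0.979 in the same edgeR test and p = 0.171 in the exact permutation test. Cd74 had 6.07, 9.33, 9.55 and 10.5 CPM in the CD mice and 5.05, 8.87 and 7.27 CPM in the KD mice. Cd74 overlapped as well, with a log2 fold change of -0.31 (SE 0.25).

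H2-Eb1, the beta chain of the class II molecule I-E and a gene of the wider pathway list, was at 1.28, 2.94, 2.41 and 5.24 CPM in CD mice 1 to 4 and at 0.984, 1.09 and 2.16 CPM in KD mice 1 to 3. Its groups overlapped through CD mouse 1, and the log2 fold change was -1.07 (SE 0.49). The class II calls depended on the mice included. Without CD mouse 4 the raw p-values of edgeR's quasi-likelihood test were 0.0846 for H2-Aa and 0.0608 for H2-Ab1, and over the 7 fits that each omit a mouse they were under 0.05 in 2 for H2-Aa (without CD mouse 1 or KD mouse 3) and in 3 for H2-Ab1 (without CD mouse 1, CD mouse 2 or KD mouse 2). The log2 fold changes stayed below 0 in these fits, from -0.88 to -0.52 for H2-Aa and from -1.02 to -0.62 for H2-Ab1.

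**Figure D2:**
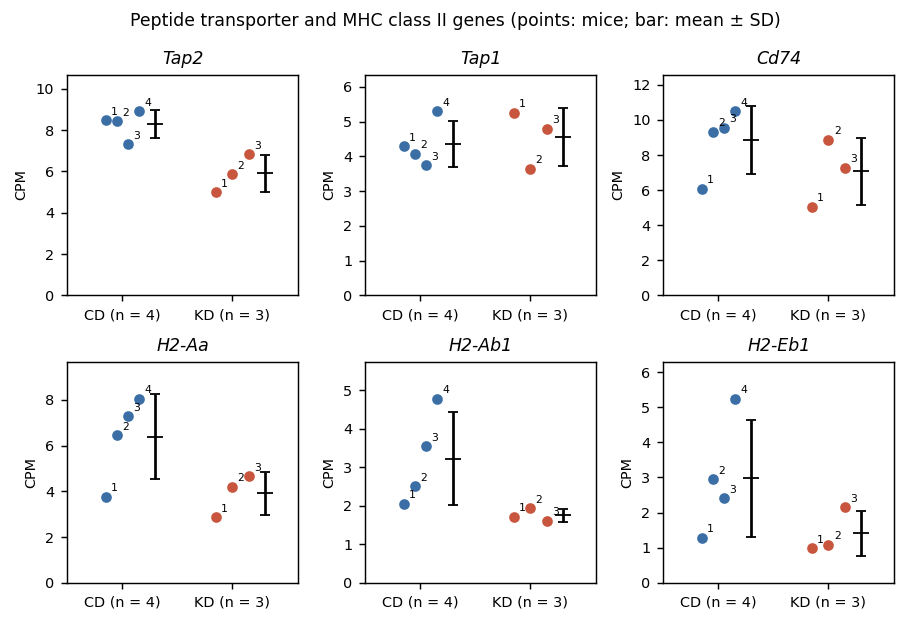
CPM (y axis) of Tap2, Tap1, Cd74, H2-Aa, H2-Ab1 and H2-Eb1 in each mouse (points, numbered by replicate) on CD (blue, n = 4) and KD (red, n = 3), with bars for mean ± SD. Tap2 and H2-Ab1 are separated by diet, at 7.32 to 8.90 against 5.004 to 6.82 CPM and at 2.05 to 4.78 against 1.62 to 1.94 CPM, whereas the groups of the other 4 genes overlap.

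The summed level of the 3 class II genes was 11.9, 18.3, 20.4 and 23.3 CPM in CD mice 1 to 4 and 9.62, 15.02 and 13.6 CPM in KD mice 1 to 3. The summed level of 7 markers of border and perivascular macrophages (all 7 tested, 1 higher and 6 lower in KD, none under a raw p-value of 0.05) was 14.4, 15.95, 25.5 and 47.7 CPM in CD and 18.8, 16.4 and 21.5 CPM in KD. Both sums were highest in CD mouse 4, and both ranked the 4 CD mice alike. They ranked the KD mice differently: KD mouse 2 was the highest KD mouse for class II and the lowest for the macrophage markers. KD mouse 1, the lowest of all 7 for class II, was above CD mice 1 and 2 for the macrophage markers. Mrc1, the mannose receptor of these macrophages, was at 7.32 to 23.2 CPM in CD and 8.17 to 9.56 CPM in KD. The 9 meningeal fibroblast markers were lower in KD for 9 of 9, with sums of 416 to 2022 CPM in CD and 245 to 764 CPM in KD, and were also highest in CD mouse 4. The 8 choroid plexus markers were lower in KD for 8 of 8 (Aqp1 at a raw p-value under 0.01), with sums of 11.7 to 461 CPM in CD and 27.1 to 49.7 CPM in KD. Of 6 olfactory bulb markers, 5 were tested, 1 being higher and 4 lower in KD (Th at a raw p-value under 0.05), and CD mouse 4 held 7.76 CPM of Eomes and 10.6 CPM of Th, against at most 0.915 and 1.795 CPM elsewhere. The olfactory bulb sums, mostly of Synpr, were 112 to 202 CPM in CD and 122 to 279 CPM in KD. Aqp1, Th and Eomes were named after their values were seen. The part of these cells in the class II difference was not tested.

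Several defining markers of T cells were at or near the floor of 3 counts. Of 11 T and NK cell markers 2 passed the filter, Cd4 and Lck, both lower in KD. Cd3d, Gzma and Gzmb had at most 3 counts in each library, and Cd3e was at 0 to 0.218 CPM. The list summed to 3.36 to 4.01 CPM in CD and 2.395 to 3.95 CPM in KD, and most of this sum came from Cd4 and Lck in every library. Of 6 B and plasma cell markers 1 passed, and the sum was 7.35 CPM in CD mouse 4 against at most 2.11 CPM elsewhere. The 7 monocyte and neutrophil markers, 3 of them tested and all 3 lower in KD, summed to 1.05 to 4.51 CPM in CD and 1.26 to 1.48 CPM in KD. For 6 dendritic cell markers (4 tested, 1 higher and 3 lower), the sums were 21.2 to 23.2 CPM in CD and 17.7 to 22.1 CPM in KD. Most of these sums came from Flt3 and Zbtb46, while Xcr1 and Ccr7, with at most 8 and 5 counts in any library, were not tested.

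Lgals9, a galectin that binds sugar chains on T cells and is induced by interferon, showed no diet difference larger than its spread. Lgals9 was at 5.500, 4.01, 3.08 and 3.47 CPM in CD mice 1 to 4 and at 5.47, 3.61 and 2.87 CPM in KD mice 1 to 3. The highest value of each diet was in mouse 1 and the groups overlapped. The log2 fold change was -0.000532 (SE 0.30).

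Across many of these genes the same mice were high or low, whatever the diet. The highest library was at least 2 times the lowest for 22 of the 34 genes (64.7%), against 30.2% of all tested genes with a count in every library. The median of this ratio was 2.27 for the 34 genes and 1.52 for all, without matching for level. KD mouse 1 was the highest library for 16 of the 34 genes (47.1%), where it was the highest for 11.3% of all genes, and KD mouse 3 was the lowest for 20 (58.8%), where it was the lowest for 18.1% of all. The median deviation of the 34 genes from their own means, on the log2(CPM + 0.5) scale, was 0.24, -0.07, -0.24 and 0.11 in CD mice 1 to 4 and 0.47, -0.09 and -0.42 in KD mice 1 to 3. The KD group thus held both ends of the range, which the heat map shows as a red and a blue column. The genes share their libraries, so these counts are not over independent values.

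**Figure D3:**
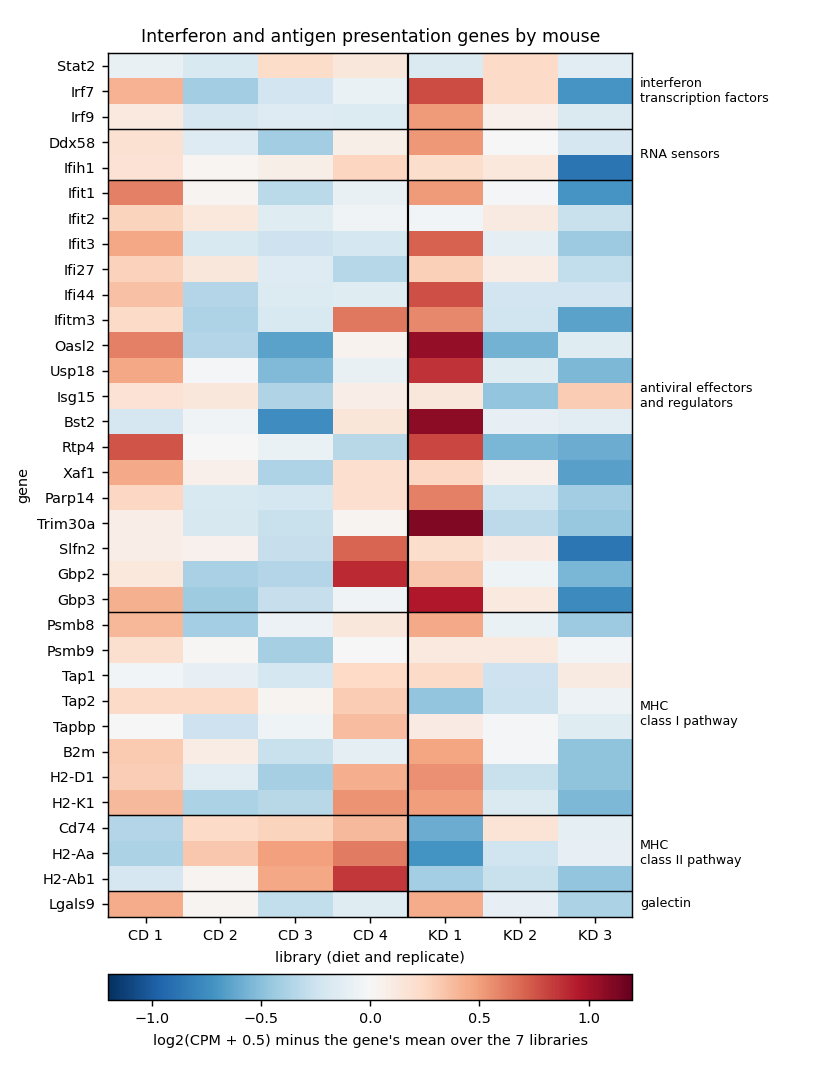
Deviation of each gene's log2(CPM + 0.5) from its mean over the 7 libraries (color, scale below), for the 34 genes in rows grouped by role and the mice in columns, CD left and KD right of the black line. KD mouse 1 is the highest library for 16 genes and KD mouse 3 the lowest for 20, while the 3 MHC class II genes are highest in CD mouse 4.

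The pattern is given by role, without a test of the difference between roles. Of the 17 effectors, 10 were highest in KD mouse 1 and 12 lowest in KD mouse 3. Of the 8 class I genes, 3 were highest in KD mouse 1 and 4 in CD mouse 4, and 4 were lowest in KD mouse 3. CD mouse 4 was the highest library for 25.3% of all tested genes. The 3 class II genes were all highest in CD mouse 4, and 2 of them were lowest in KD mouse 1, the mouse in which the effectors were highest. Of the 13 genes with an ISRE core in their window, 6 were highest in KD mouse 1 and 9 lowest in KD mouse 3, and of the 14 without it these were 6 and 7.

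The direction of the diet difference depended on the mice included. Without KD mouse 1, 4 of the 34 genes were higher in KD and the median log2 fold change was -0.30. Without KD mouse 3, 26 were higher and the median was 0.18, and without CD mouse 1, 22 were higher and the median was 0.14. Omitting CD mouse 4, which stood apart over all genes, left 20 higher and a median of 0.06. In the plot of diet differences the bands cross 0 for 25 of the 34 genes.

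Glial and endothelial marker lists followed these mice in part. The summed level of the 17 effectors was 176, 136, 117 and 141 CPM in CD and 198, 136 and 103 CPM in KD, and that of the 8 class I genes was 257, 206, 177 and 229 CPM in CD and 281, 200 and 157 CPM in KD. The 14 microglia markers (all tested, 11 higher and 3 lower in KD, of which Csf1r and Itgam were higher at a raw p-value under 0.05) summed to 904, 746, 705 and 529 CPM in CD and 1036, 775 and 719 CPM in KD. KD mouse 1 was the highest in all 3 sums, while KD mouse 3, the lowest for the interferon genes, was not the lowest for microglia. CD mouse 4, the highest library for 11 of the 34 genes (32.4%, against 25.3% of all tested genes), had the lowest microglia sum of the 7. The 7 astrocyte markers (all tested, 6 higher and 1 lower) summed to 5516, 5155, 4863 and 5317 CPM in CD and 6919, 5495 and 4430 CPM in KD, with the same highest and lowest mouse as the effectors. Most of this sum was Slc1a2, at 5183 CPM in KD mouse 1 and 2869 CPM in KD mouse 3. Slc1a2 and Aldh1l1 were lowest in KD mouse 3, the other astrocyte markers were lowest in CD mice, and Slc1a3 was highest in KD mouse 3 (768 CPM). Among microglia genes, Cx3cr1 was at 66.5 to 89.9 CPM in CD and 83.0 to 110 CPM in KD, P2ry12 at 40.4 to 72.5 CPM in CD and 61.8 to 72.5 CPM in KD, and Tmem119 at 14.3 to 26.6 CPM in CD and 13.7 to 18.4 CPM in KD. The 11 endothelial markers (all tested, 2 higher and 9 lower) summed to 322, 274, 283 and 439 CPM in CD and 332, 308 and 258 CPM in KD. CD mouse 4, KD mouse 1 and CD mouse 1 were the highest and KD mouse 3 the lowest in this sum. The sums of effectors and class I genes had the same 3 highest mice, in another order, and the same lowest mouse. The endothelial gene Cldn5 was at 15.8 to 25.5 CPM in CD and 15.8 to 19.4 CPM in KD. The 7 oligodendrocyte markers, lower in KD for 7 of 7, ranged more widely, from 1069 to 4152 CPM in CD and from 1118 to 4036 CPM in KD, with CD mouse 1 highest and CD mouse 3 lowest. The part of cell composition in the interferon gene levels was not tested.

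**Figure D4:**
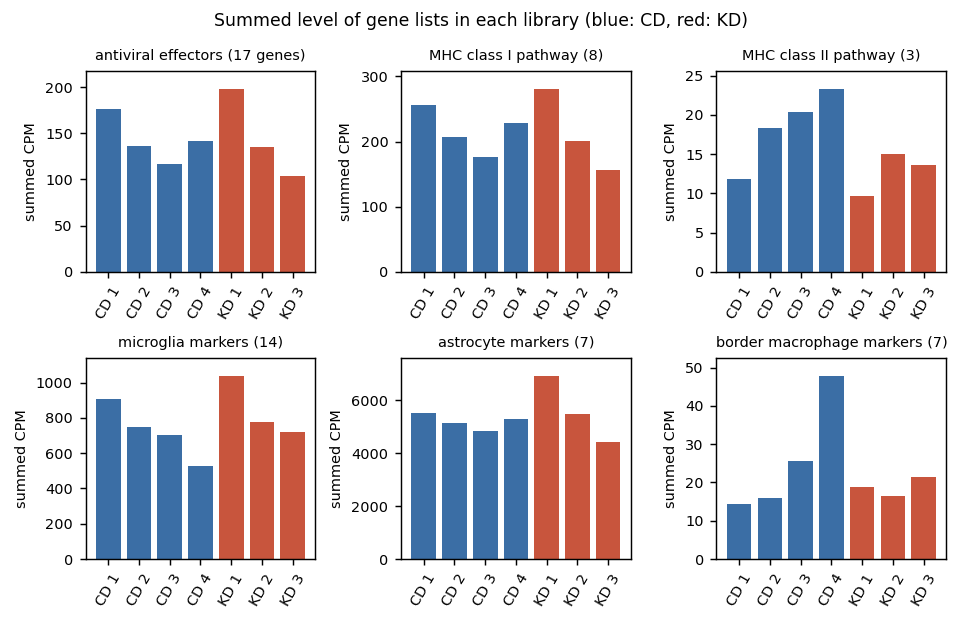
Summed CPM (y axis, from 0) of 3 groups of the 34 genes and of 3 marker lists in each mouse (x axis, blue CD, red KD). The effectors, class I genes, microglia markers and astrocyte markers are highest in KD mouse 1, at 198, 281, 1036 and 6919 CPM, whereas the class II genes and border macrophage markers are highest in CD mouse 4, at 23.3 and 47.7 CPM.

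The mice were also compared within the libraries high in Xist and within those high in Ddx3y. Among the 4 libraries high in Xist (2 CD, 2 KD), 23 of the 34 genes were higher in KD, with a median log2 difference of 0.11. Among the 3 high in Ddx3y (2 CD, and KD mouse 3 alone), 5 of the 34 were higher in KD, with a median of -0.32. For all tested genes these medians were -0.00663 and -0.00385. The 3 class II genes were lower in KD within both kinds of library, by medians of -0.25 and -0.66. Tap2 was lower as well, at 8.46 and 8.43 CPM in CD against 5.004 and 5.88 CPM in KD among libraries high in Xist, and at 7.32 and 8.90 CPM against 6.82 CPM among the others. With the kind of library as a covariate, a fit added after the data had been seen, the log2 fold changes were -0.47 for Tap2, -0.60 for H2-Aa and -0.71 for H2-Ab1, and their raw p-values in edgeR's quasi-likelihood test were 0.0195, 0.0440 and 0.0467. In the 4 libraries high in Xist alone the log2 fold changes were -0.62 for Tap2, -0.51 for H2-Aa and -0.31 for H2-Ab1, with raw p-values of 0.0120, 0.153 and 0.369 in the same edgeR test, so the class II genes were no longer under 0.05 there. The kind of library and the single KD mouse in the smaller comparison cannot be told apart.

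The wider pathway was read from a list of 120 further genes, of which 104 were tested. Of these, 66 were higher and 38 lower in KD, the median log2 fold change was 0.06, and none reached a raw p-value of 0.01. At a raw p-value under 0.05, Sp110 and Tapbpl were higher and Iigp1 was lower, named here after their values were seen, a count of 3 in 104 where 3.19% of all genes were called. Without KD mouse 1, 42 of the 104 were higher and the median was -0.08. Interferon genes themselves were hardly read: Ifnb1, Ifna4 and Ifne had at most 3 counts in each library. Of the receptor subunits, 3 had log2 fold changes of -0.05 (SE 0.08) for Ifnar1 at 63.5 to 73.7 CPM, 0.09 (SE 0.09) for Ifnar2 at 16.4 to 19.3 CPM and 0.02 (SE 0.11) for the interferon gamma receptor Ifngr1 at 19.1 to 24.5 CPM, whereas the rarer lambda receptor subunit Ifnlr1 ran from 0.176 to 0.718 CPM (log2 fold change -0.05, SE 0.55). Of the 18 tested genes of interferons, receptors and signaling, 11 were higher and 7 lower, with a median of 0.03. Irf1, an activator induced by interferon gamma, was at 9.12 to 10.4 CPM in all 7 mice, and the microglial factor Irf8 was at 6.15 to 10.4 CPM in CD and 6.78 to 12.0 CPM in KD.

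Of 14 tested genes of nucleic acid sensing, KD was higher for 7 and lower for 7 (median log2 fold change 0.01). The 47 tested genes among other interferon-induced genes were higher in KD for 31 and lower for 16, with a median of 0.06. The antiviral GTPase Mx1 was at 1.11, 1.204, 0.702 and 0.655 CPM in CD and 1.92, 0.529 and 0.494 CPM in KD, so KD again held the highest and the lowest mouse. Oas2, an oligoadenylate synthetase, was at 0.234 to 1.12 CPM in CD and 0.269 to 1.11 CPM in KD.

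Antigen presentation genes outside the 34 were higher in KD for 17 of 25 tested and lower for 8, with a median of 0.08. Nlrc5, the master activator of class I genes, was at 1.77, 1.54, 1.13 and 1.88 CPM in CD and 3.72, 2.47 and 1.62 CPM in KD. Ciita, the master activator of class II genes, was at 1.65, 1.44, 1.89 and 1.502 CPM in CD and 3.08, 2.12 and 1.71 CPM in KD. Both activators were highest in KD mouse 1 and second highest in KD mouse 2, with log2 fold changes of 0.73 (SE 0.33) and 0.52 (SE 0.28), and their raw p-values of 0.0571 and 0.0989 (edgeR quasi-likelihood test, adjusted p = 0.979) did not pass. Ciita was thus highest in the mouse with the lowest sum of class II genes. Ctss, a cathepsin that trims the invariant chain, was at 118 to 232 CPM in CD and 173 to 263 CPM in KD (log2 fold change 0.21, SE 0.25).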

How the data were processed

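RNA from the cortex of 7 APP/PS1 mice was prepared with the TruSeq Stranded Total RNA Gold kit for paired reads of 50 bp. The authors aligned reads to mm10 with STAR, and the values they deposited are raw counts per gene symbol and mouse, made with the HTSeq counting of STAR, neither normalized nor pooled. Tool versions, annotation and strand setting are not given in the sources used here. Totals were 22272883 to 36614954 counts, so that the floor of 3 counts equals 0.0819 to 0.135 CPM. Diet and replicate came from the labels.

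KD was compared with CD in edgeR 4.0.16 (filterByExpr, TMM, glmQLFit with robust=TRUE, glmQLFTest, no covariate), with Benjamini-Hochberg adjustment over 15881 genes, which held 99.97% of the counts. The SE is the log2 fold change divided by the square root of F. Exact two-sided permutation tests used log2(CPM + 0.5) and all 35 arrangements. The study names edgeR, TMM and a raw threshold of 0.01. Exon lengths and coordinates came from GENCODE M21 and promoters from RefSeq. The fit was tested on simulated counts with known changes.

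The members, gene lists and tests were chosen with earlier results of these data known. All 34 members were named, per library where the highest was at least 1.5 times the lowest. Of the other lists, Ifnar1, Ifnar2, Ifngr1, Irf1, Irf8, Nlrc5, Ciita, Mx1, Oas2, H2-Eb1, Ctss and any pathway gene with a raw p-value of at most 0.01 were named, and the markers Cx3cr1, P2ry12, Tmem119, Cldn5, Cd3e, Cd79a, S100a9, Ccr2, Mrc1, Ttr, Col1a1, Slc17a7, Xist and Ddx3y. Some items of these lists are not reported here. The 20 alternatives, 18 of them planned, were other scalings, filters and tests (likelihood-ratio, DESeq2 1.42.0, limma-voom 3.58.1), robust=FALSE, a replicate block, Xist as a covariate, leaving out each library, and 2 added after seeing the data (the kind of library as a covariate, and the 4 libraries high in Xist alone).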

Additional observations from a re-analysis of the deposited data

Results flagged for a closer look

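In the 4 CD mice, 1 library lay far from the other 3 for 3 of 40 values examined (the log2 CPM of the 34 genes and 6 summed levels), where chance alone would give 2. The 40 values are not independent, as the sums are built from the 34 genes and the galectin sum is Lgals9 alone. The gap to the nearest library, as a share of the range of the 4, exceeded Dixon's critical value for 4 libraries in each of the 3 flagged cases. For Irf9 the library was CD mouse 1, at 3.70 log2 CPM against 3.37 to 3.42 in the others, with a share of 0.834. For Ifit3 it was again CD mouse 1, at 4.24 against at most 3.57, with a share of 0.907. For Isg15 it was CD mouse 3, which was low, at -0.71 against 0.02 to 0.15, with a share of 0.841. CD mouse 1 was also the highest CD library for Ifit1, Rtp4 and Usp18, which were not past the critical value. The 3 KD libraries were too few for this rule.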

How the results depend on the processing

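Tap2, Ifit2, Cd74, H2-Aa and H2-Ab1 stayed lower in KD, and Irf9, Bst2 and Psmb9 higher, under all 20 alternatives. With no alternative did any of the 34 genes pass an adjusted p-value of 0.05. Of the 34 genes, DESeq2 put 1 (Tap2) past the raw threshold of 0.01, and 0 to 1 passed it when single libraries were left out (H2-Aa without CD mouse 1, Tap2 without KD mouse 3). The count of genes higher in KD was 23 in the 4 libraries high in Xist and 4 to 26 without single libraries, where the median ran from -0.30 to 0.18. For the wider pathway 4 genes were at a raw p-value of at most 0.01 in the 4 libraries high in Xist (Gbp4, Samd9l, Sp110 and Tor3a, seen afterwards), and 0 to 1 without single libraries, while 42 (without KD mouse 1) to 79 (without KD mouse 3) of 104 were higher in KD, with medians of -0.0823 and 0.16. Over all genes the likelihood-ratio test gave 103, DESeq2 120, and the quasi-likelihood test 227 with Xist as a covariate, 210 with the kind of library as a covariate, 420 in the 4 libraries high in Xist and 19 (without CD mouse 1) to 211 (without CD mouse 3) without single libraries. 1 gene passed the adjusted threshold with the likelihood-ratio test (Xlr4a) and 1 with Xist as a covariate (Kdm5d). The causes were not tested.

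Whether replicate numbers pair the mice is not stated in the labels. The deviations of same-numbered mice from their diet means correlated across genes by 0.229, 0.176 and 0.0894. Differently numbered mice were not compared, so these values do not decide it. Same-numbered mice were of the same kind of library, high in Xist for mice 1 and 2 and high in Ddx3y for mouse 3. The replicate block over mice 1 to 3 also left out CD mouse 4. In this fit 182 genes were at a raw p-value of at most 0.01, none of them among the 34. The log2 fold change crossed 0 for Ifi27 (-0.0668), Ifitm3 (0.00276), Gbp2 (0.12), Psmb8 (0.00679), Tapbp (0.0689), B2m (-0.0623), H2-D1 (0.00704) and H2-K1 (0.0344). Each of these genes also crossed 0 when CD mouse 4 alone was omitted. The block and the omission of that mouse cannot be told apart in these signs.

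Signs also changed in other fits. In the 4 libraries high in Xist the log2 fold changes were Stat2 0.19, Ifih1 0.0713, Ifi27 -0.0107, Ifitm3 0.27, Slfn2 0.11, Gbp2 0.27, Psmb8 0.17, Tapbp 0.16, H2-D1 0.10 and H2-K1 0.15. With Xist as a covariate they were Ifi27 -0.00606, Parp14 -0.0493 and B2m -0.0713, and with the kind of library as a covariate Ifi27 -0.0299, Parp14 -0.0447 and B2m -0.0904. With limma-voom they were Parp14 -0.0526 and B2m -0.00782. Lgals9 was at 0.00203 with RLE scaling, 0.00026 with upper-quartile scaling, 0.00305 with the filter of 1 CPM in 3 libraries and 0.00177 with DESeq2. When single libraries were left out, the log2 fold change of 25 genes took both signs: Stat2 -0.19 to 0.0424, Irf7 -0.12 to 0.69, Ddx58 -0.0369 to 0.38, Ifih1 -0.42 to 0.0541, Ifit1 -0.45 to 0.20, Ifit3 -0.25 to 0.40, Ifi27 -0.0851 to 0.21, Ifi44 -0.25 to 0.58, Ifitm3 -0.59 to 0.12, Oasl2 -0.38 to 0.66, Usp18 -0.39 to 0.54, Isg15 -0.25 to 0.29, Rtp4 -0.87 to 0.21, Xaf1 -0.39 to 0.061, Parp14 -0.37 to 0.24, Trim30a -0.32 to 0.70, Gbp2 -0.47 to 0.14, Gbp3 -0.21 to 0.70, Psmb8 -0.30 to 0.20, Tap1 -0.0426 to 0.21, Tapbp -0.12 to 0.069, B2m -0.25 to 0.24, H2-D1 -0.46 to 0.14, H2-K1 -0.45 to 0.12 and Lgals9 -0.30 to 0.19. At this depth the lowest counts, such as those of Isg15, limit what can be seen.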

Other observations

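Among the 104 tested genes of the wider pathway, 3 had a raw p-value under 0.05, where 3.19% of all tested genes did, and they are described here after their values were seen. Sp110, a nuclear body protein induced by interferon, was at 0.912, 0.903, 1.07 and 1.88 CPM in CD mice 1 to 4 and at 2.44, 1.998 and 1.796 CPM in KD mice 1 to 3. The groups overlapped through CD mouse 4, and the log2 fold change was 0.82 (SE 0.33). Tapbpl (TAPBPR), which edits the peptides held by MHC class I, was at 8.21, 6.39, 8.94 and 7.87 CPM in CD and at 10.3, 8.96 and 11.1 CPM in KD, so that each KD mouse lay above each CD mouse, although CD mouse 3 and KD mouse 2 were nearly equal. Its log2 fold change was 0.37 (SE 0.15), whereas that of Tapbp was -0.04 (SE 0.14). Iigp1, an immunity-related GTPase, was at 4.42, 2.94, 2.99 and 4.59 CPM in CD and at 2.74, 2.44 and 2.38 CPM in KD, and each KD mouse lay below each CD mouse, with a log2 fold change of -0.55 (SE 0.23). Over all tested genes, 4.2% had ranges that did not overlap. The adjusted p-value of all 3 was 0.979 in edgeR's quasi-likelihood test.

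The microglia genes Csf1r and Itgam, also named after their values were seen, had log2 fold changes of 0.35 (SE 0.15) and 0.47 (SE 0.16), with an adjusted p-value of 0.979 each in edgeR's quasi-likelihood test. Itgam was at 35.8, 34.3, 32.5 and 25.0 CPM in CD and at 50.8, 42.9 and 38.1 CPM in KD. Ccr2 and S100a9, marks of monocytes and neutrophils, were at most 2.40 and 0.737 CPM in any mouse, both in CD mouse 4, and Cd79a of B cells was at most 0.218 CPM.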
